A study of Mus musculus with 28 samples.

Results

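A set of 6 genes of the sheddase machinery around the metalloprotease ADAM17 was followed through 4 genotypes of mice, in whole kidney and in sorted kidney macrophages. The members are Rhbdf1 and Rhbdf2, which encode iRhom1 and iRhom2, the proteases Adam17 and Adam10, the iRhom-binding gene Frmd8 and the protease inhibitor Timp3. They were found by an exact match of the gene symbol, which gave 6 of 12315 genes in the whole-kidney table and 6 of 10523 in the macrophage table. No measured value entered the choice of members, but the list was drawn up with earlier results of these data known.

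ADAM17, also called TNF-alpha converting enzyme, cuts membrane proteins close to the cell surface and so releases TNF, TNF receptors and several ligands of the EGF receptor. It is made as an inactive precursor and needs an iRhom, a rhomboid-like protein without protease activity, to leave the endoplasmic reticulum, mature and act at the surface. Immune cells rely mainly on iRhom2, while many other cell types express iRhom1 as well. FRMD8, also known as iTAP, binds iRhoms and protects them from degradation. ADAM10 is the closest relative of ADAM17, has an overlapping range of substrates and is guided by tetraspanins in place of iRhoms. TIMP3 is a secreted, matrix-bound inhibitor of both proteases and of several matrix metalloproteinases.

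RNA was measured by sequencing in whole perfused kidneys (4 genotypes, 4 libraries each, 16 in all) and in macrophages sorted from digested kidneys (3 libraries per genotype, 12 in all). All mice were female C57BL/6 littermates of 7 to 9 months, labelled as wild-type (WT), Rhbdf2-/-, Fcgr2b-/- or Fcgr2b-/-Rhbdf2-/-, the last called the double mutant here. Fcgr2b encodes the inhibitory Fc receptor for IgG, and its loss on this background is used as a model of lupus nephritis. Neither treatment nor transgene is named in the labels, and the sources used here do not give the deleted stretch of either gene. The sorted cells were positive for CD45 and CD11b, high for F4/80 and negative for Ly6G and Ly6C. The design asks whether loss of iRhom2 alters the kidney and its macrophages, with and without Fcgr2b.

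Rhbdf1 and Rhbdf2 are related enough that reads could in principle be shared, so their coding sequences were compared first. Over 2436 aligned coding bases they were 66.2% identical, and the longest stretch that both hold without a mismatch was 35 bases. It is shown here 5′ to 3′ from the GENCODE transcripts (GRCm38), with 20 bases on either side; capitals mark the shared run, which starts at coding base 1364 in Rhbdf1 and 1271 in Rhbdf2.
Rhbdf1: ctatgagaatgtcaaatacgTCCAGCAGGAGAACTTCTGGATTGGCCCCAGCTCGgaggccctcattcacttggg
Rhbdf2: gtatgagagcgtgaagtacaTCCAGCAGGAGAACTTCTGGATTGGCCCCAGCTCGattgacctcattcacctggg
The run is shorter than the 50-base reads. None of the 5895 distinct 50-base runs of Rhbdf1 transcripts, the 5288 of Rhbdf2 and the 4958 of Adam10 occurred in a transcript of another gene on either strand, so reads of these 3 genes are told apart by sequence alone. Adam17 and Adam10 coding sequences were 53.2% identical, with a longest shared run of 10 bases.

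The other members overlap a gene on the opposite strand, and the sources used here do not say whether counting used strand. Timp3 sits inside Syn3, with which 1684 of its 8094 distinct 50-base runs are shared. Adam17 shares 262 of 7521 runs with Iah1, and Frmd8 shares 340 of 5075 with Frmd8os. Runs shared with any other gene number 1733 for Timp3, 363 for Adam17 and 346 for Frmd8, over 569, 385 and 4 genes. Syn3 stood at 2.70 to 7.23 CPM (read counts scaled to the size of the library) in the kidney libraries against 31.7 to 143 CPM of Timp3. It was not listed in the macrophage table, where its level beside Timp3 is therefore not known. Iah1 stood at 93.3 to 221 CPM in kidney and at 33.6 to 97.4 in macrophages.

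All 6 deposited gene positions match GENCODE vM21 on GRCm38. Rhbdf1 lies on chromosome 11 from 32209585 to 32222300 and Rhbdf2 on the same chromosome from 116598165 to 116627019, each on the minus strand. Adam17 occupies chromosome 12 from 21323509 to 21373632 on the minus strand and Adam10 chromosome 9 from 70678997 to 70780229 on the plus strand. Frmd8 is on chromosome 19, 5849702 to 5875274, minus strand. Timp3 is on chromosome 10, 86300372 to 86349506, plus strand.

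Adam17 and Timp3, protease and inhibitor, differed in opposite directions in the results below, so the bases in front of both genes are shown. They come from RefSeq (GRCm38.p6), run 5′ to 3′ on the gene's strand and end where the GENCODE gene begins; capitals mark matches to a searched motif.
Adam17, chr12:21373633-21373882, minus strand: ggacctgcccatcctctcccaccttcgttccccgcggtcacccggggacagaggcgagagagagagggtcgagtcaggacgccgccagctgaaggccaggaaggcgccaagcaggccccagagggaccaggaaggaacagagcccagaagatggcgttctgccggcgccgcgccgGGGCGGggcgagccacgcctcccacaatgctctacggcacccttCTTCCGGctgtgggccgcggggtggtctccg
Timp3, chr10:86300162-86300371, plus strand: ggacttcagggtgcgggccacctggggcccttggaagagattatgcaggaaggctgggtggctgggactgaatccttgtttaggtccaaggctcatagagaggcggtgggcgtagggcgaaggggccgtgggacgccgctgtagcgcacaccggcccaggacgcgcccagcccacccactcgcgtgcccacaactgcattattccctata
Both strands were searched for GGGCGG (bound by SP factors), CCGGAAG (ETS), TGANTCA (AP-1), TATAAA (bound by TBP) and the NF-kB motif. The Adam17 window held 1 GGGCGG, which 32.9% of 27025 promoters of that length hold, and 1 CCGGAAG on the other strand, held by 7.05%. None of the 5 motifs was found in the 210 bases before Timp3, where 26.7% of promoters hold GGGCGG, 6.00% TGANTCA, 9.92% TATAAA, 4.52% CCGGAAG and 5.82% the NF-kB motif; for the Adam17 window the shares of the 3 unmatched motifs were 6.87% (TGANTCA), 13.0% (TATAAA) and 7.01% (NF-kB). GC content was 70.4% before Adam17 and 63.8% before Timp3, against medians of 52.0% and 51.4% over all promoters of the same lengths. These matches describe the letters only.

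Recovered depth was 29014951 to 41616747 reads per kidney library and 30848469 to 34868489 per macrophage library, so the lowest member value (Timp3 in 1 Fcgr2b-/- macrophage library) still rested on 47 reads. Genotype names below are those of the labels, since reads of both targeted genes remained in libraries labelled as lacking them. Fcgr2b stood at 23.4 to 34.2 CPM in kidneys labelled Fcgr2b-/- against 29.3 to 35.8 in wild-type, and at 256 to 382 in Fcgr2b-/- macrophages against 539 to 715 in wild-type. Its log2 change in Fcgr2b-/- against wild-type was -0.20 in kidney and -0.96 in macrophages (limma adjusted p = 0.333 and 0.000493). Libraries labelled as double mutant held 20.7 to 41.5 CPM of Fcgr2b in kidney and 455 to 550 in macrophages. In macrophages Fcgr2b was thus higher in the double mutant than in Fcgr2b-/-, by 0.70 on the log2 scale (limma adjusted p = 0.00789), and was not called against wild-type (-0.27, adjusted p = 0.268), which touches each comparison of double-mutant with Fcgr2b-/- macrophages. The double-mutant kidney library iR2ko_65 stood apart. Its profile correlated about equally with the Rhbdf2-/- and wild-type libraries (mean Pearson r across genes of 0.986 and 0.985). The correlation with the other double mutants was lower (0.962). Its macrophage markers summed to 505 CPM against 1194 to 2064 in the other double mutants. Kidney libraries of 1 genotype share 1 lane number in their labels and each genotype has its own, so genotype and lane cannot be told apart. In the sorted cells Ptprc (674 to 2016 CPM), Emr1 (1605 to 4246) and Itgam (104 to 1442), the genes for CD45, F4/80 and CD11b, were present in every library. Ly6g and Ly6c2 were not listed, while Ly6c1 stood at 0.986 to 15.4 CPM. Tubule transcripts were present in the sorted cells too, with a summed level of 10 measured distal nephron markers of 1722 to 7573 CPM in wild-type libraries.

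Which members differ with loss of Fcgr2b, and which with additional loss of Rhbdf2, was tested gene by gene with limma on log2(CPM + 1), and a gene was called at an adjusted p below 0.05 over all genes of its tissue. In Fcgr2b-/- kidneys against wild-type 5 members rose and Timp3 fell, beside 60.3% of all genes called (29.5% higher, 30.8% lower); the median log2 change was 0.39 over the members and -0.0089 over all genes. In double-mutant against Fcgr2b-/- kidneys Rhbdf1, Rhbdf2, Adam10 and Frmd8 fell and Timp3 rose, 5 of 6, beside 45.3% of all genes called, 22.5% higher and 22.8% lower (median -0.36 over the members, -0.0042 over all genes). In double-mutant against wild-type kidneys Timp3 alone was called, and it fell, beside 7.29% of genes called (4.52% higher, 2.77% lower). No member was called in double-mutant against Rhbdf2-/- kidneys (3.5% of genes called, 2.32% higher and 1.18% lower; 2 members had an unadjusted p below 0.05, and voom called 0).

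Single loss of Rhbdf2 moved no member past the threshold in either tissue. In kidney limma called 0% of genes, 272 of 12315 had an unadjusted p below 0.05, and voom and the authors' deposited table also called 0; no member had an unadjusted p below 0.05. In macrophages 0.019% of genes were called, and 1 member, Rhbdf2 itself, had an unadjusted p below 0.05, with 0 members called by voom and by the authors' deposited table.

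In Fcgr2b-/- macrophages against wild-type Adam17, Adam10 and Rhbdf2 rose and Rhbdf1 and Timp3 fell, beside 52.8% of genes called, 24.2% higher and 28.5% lower. In double-mutant against Fcgr2b-/- macrophages Rhbdf1 alone was called, and it rose (29.6% of genes called, 15.8% higher and 13.8% lower). Against Rhbdf2-/- macrophages the double mutant had higher Adam17 and Adam10 and lower Timp3 (18.2% of genes called, 9.2% higher and 9.03% lower), and against wild-type higher Adam17 and lower Rhbdf1 (18.5%, 9.88% higher and 8.58% lower). A member's count in each comparison is to be read against these shares, and the first 2 comparisons named for each tissue share the Fcgr2b-/- libraries. A further contrast asked whether the difference made by Rhbdf2 loss depends on Fcgr2b: the double mutant minus Fcgr2b-/-, less Rhbdf2-/- minus wild-type. It was past the threshold for 4 members in kidney (27.8% of genes, 13.9% in each direction) and for 0 in macrophages (11.9% of genes, 6.03% higher and 5.89% lower; 1 member, Rhbdf1, at an unadjusted p below 0.05, and 0 by voom).

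Whether the libraries of 2 groups overlap was also counted. In kidney all libraries of a gene lay apart for 51.7% of genes in Fcgr2b-/- against wild-type, 33.4% in double mutant against Fcgr2b-/-, 15.7% in double mutant against Rhbdf2-/- and 17.9% in double mutant against wild-type. The corresponding shares in macrophages were 58.5%, 41.7%, 41.3% and 32.4%, and 10.4% for Rhbdf2-/- against wild-type.

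**Figure D1:**
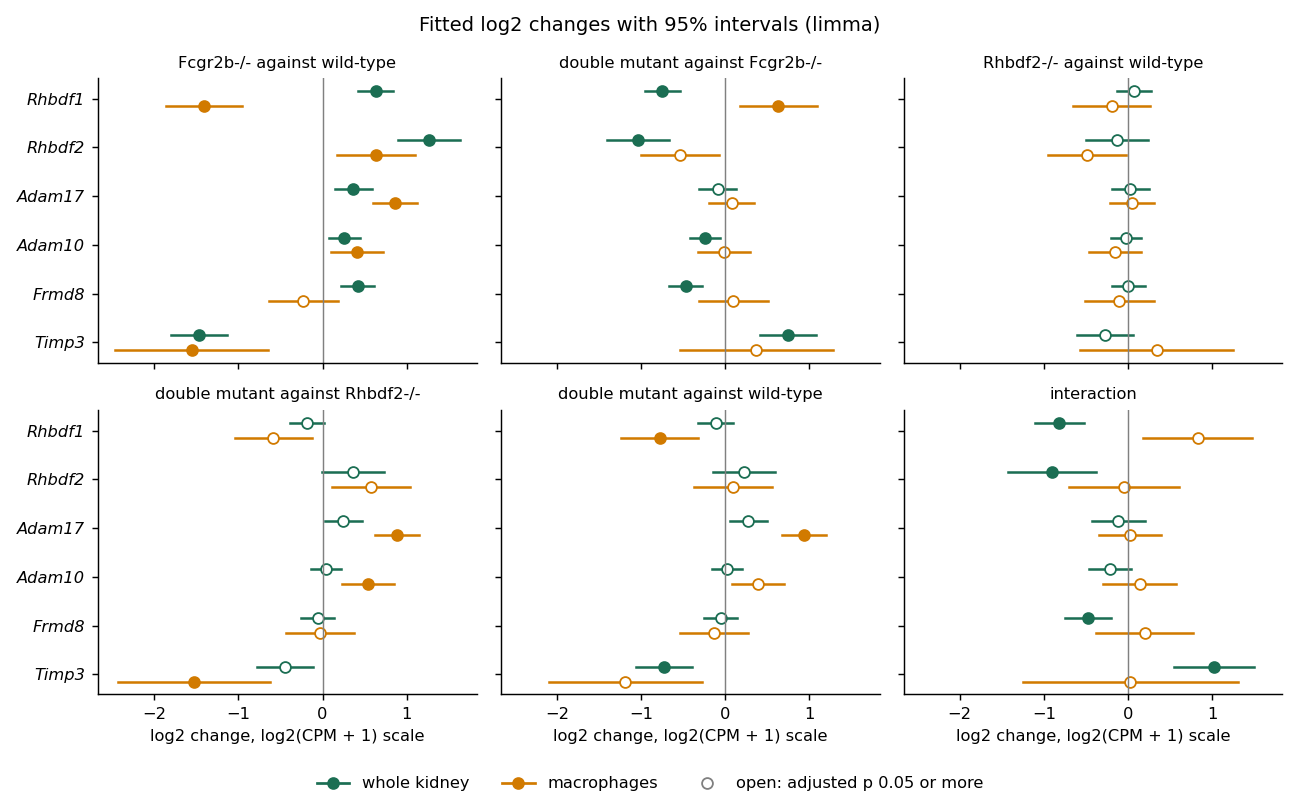
Fitted log2 change (x axis, log2(CPM + 1) scale) of each member with its 95% interval in 6 comparisons, for whole kidney (green) and macrophages (orange); filled points have an adjusted p below 0.05. Rhbdf1 lies at 0.63 in kidney and at -1.41 in macrophages for Fcgr2b-/- against wild-type, while Timp3 lies at -1.47 and -1.56.

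Rhbdf2, the gene for iRhom2, was the member with the largest rise in Fcgr2b-/- kidneys. Its level was 12.9 CPM in each of the 4 wild-type kidneys and 12.2, 10.8, 11.4 and 12.3 CPM in the Rhbdf2-/- kidneys. It was 37.1, 25.0, 32.3 and 36.5 CPM in the Fcgr2b-/- kidneys and 16.1, 19.7, 18.2 and 9.29 CPM in the double mutants, the last value from iR2ko_65. All 4 Fcgr2b-/- kidneys lay above every other kidney, and the Rhbdf2-/- kidneys lay just under the wild-type ones without overlap. Rhbdf2-/- and wild-type kidneys lay apart, in either direction, for 5.73% of all genes. Rhbdf2 rose by 1.26 ± 0.17 on the log2 scale (SE; limma adjusted p = 2.51e-05; 2.54-fold between means) in Fcgr2b-/- against wild-type. Double-mutant kidneys had 0.483 times the Fcgr2b-/- level, a fitted log2 difference of -1.04 ± 0.17 (adjusted p = 0.000269).

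Reads of Rhbdf2 thus remained in libraries labelled Rhbdf2-/-. The ratio of means to wild-type was 0.906 in kidney, with a log2 change of -0.13 and a 95% interval of -0.50 to 0.24. In macrophages it was 0.688, with a log2 change of -0.49 and an interval of -0.95 to -0.03. Values per gene do not show which exons the reads came from. Without iR2ko_65 the double-mutant kidneys had more Rhbdf2 than wild-type, by 0.45 (limma adjusted p = 0.0164), and more than Rhbdf2-/-, by 0.58 (adjusted p = 0.00362); with that library the changes were 0.23 (adjusted p = 0.465) and 0.36 (adjusted p = 0.229).

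In macrophages Rhbdf2 stood at 16.2, 21.0 and 25.0 CPM in wild-type, at 13.4, 15.5 and 13.9 in Rhbdf2-/-, at 43.3, 30.7 and 25.2 in Fcgr2b-/- and at 26.6, 21.6 and 18.1 in the double mutant. The lowest Fcgr2b-/- library lay just above the highest wild-type one. The log2 change in Fcgr2b-/- against wild-type was 0.63 ± 0.21 (SE; limma adjusted p = 0.0248), and it did not pass when wild-type library WTa (adjusted p = 0.106), WTb (0.0541) or Fcgr2b-/- library FcR2bko_847 (0.105) was left out, nor with the letters a and b as a replicate block (0.152), with scaling to non-mitochondrial reads (0.0569) or with the 2 groups alone in the fit (0.0536). The double mutant had a log2 change of -0.54 from Fcgr2b-/- (adjusted p = 0.0743).

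Rhbdf1, the gene for iRhom1, moved in opposite directions in the 2 kinds of sample. In kidney it stood at 40.3, 41.2, 36.4 and 45.2 CPM in wild-type and at 43.3, 40.2, 40.4 and 47.3 in Rhbdf2-/-. The Fcgr2b-/- kidneys had 60.8, 59.7, 67.2 and 66.7 CPM and the double mutants 43.6, 40.9, 35.2 and 31.3. Every Fcgr2b-/- kidney was above every kidney of the other 3 genotypes, which overlapped each other. Rhbdf1 rose by 0.63 ± 0.10 against wild-type (log2; limma adjusted p = 6.45e-05), and the double mutant was lower than Fcgr2b-/- by a log2 change of -0.75 ± 0.10 (adjusted p = 3.64e-05). Double-mutant and wild-type kidneys differed by -0.11 (95% interval -0.32 to 0.09).

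In macrophages Rhbdf1 was low throughout, at 9.06, 8.76 and 6.72 CPM in wild-type and 8.62, 5.75 and 6.77 in Rhbdf2-/-. It was lower still in Fcgr2b-/- macrophages, at 2.00, 2.92 and 2.45 CPM, and stood at 4.60, 3.49 and 4.97 in the double mutant. The 3 Fcgr2b-/- libraries were the lowest and the double mutants lay between them and the others without overlap. Fcgr2b-/- against wild-type gave a fitted log2 difference of -1.41 ± 0.21 (SE; limma adjusted p = 0.000207), where 69 to 103 reads were behind each Fcgr2b-/- value. Markers of other cell types moved in these libraries too: 10 of 10 measured distal nephron markers fell in Fcgr2b-/- against wild-type, with sums of 1722 to 7573 CPM in wild-type and 402 to 1089 in Fcgr2b-/-. Of 9 measured lymphocyte markers (10 listed) 4 fell, with sums of 458 to 499 CPM in wild-type, 482 to 885 for Rhbdf2-/-, 145 to 185 for Fcgr2b-/- and 483 to 602 for double mutants, and 1 marker was at 0 in every Fcgr2b-/- library. The counts of markers that fell stand beside 52.8% of all genes called in Fcgr2b-/- against wild-type macrophages, 28.5% lower. Whole wild-type kidney held 36.4 to 45.2 CPM of Rhbdf1, and the part of other cells in the values of sorted macrophages was not tested. The rise of Rhbdf1 in double-mutant over Fcgr2b-/- macrophages, 0.63 ± 0.21 (adjusted p = 0.0398), did not pass with voom (adjusted p = 0.0961), when libraries were scaled to non-mitochondrial reads (0.111), when they were recentred on the median (0.05001) or with the 2 groups alone in the fit (0.0948). It also failed without FcR2bko_847 (0.114), FcR2bko_875 (0.0827), iR2ko_579 (0.0861) or iR2ko_592 (0.127). Double mutants also had less Rhbdf1 than wild-type, -0.78 (adjusted p = 0.0266). That call was lost without WTa (0.107), WTb (0.11), iR2ko_579 (0.0628) or iR2ko_823 (0.0799) under the replicate block (0.201) and with the 2 groups alone (0.0725).

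**Figure D2:**
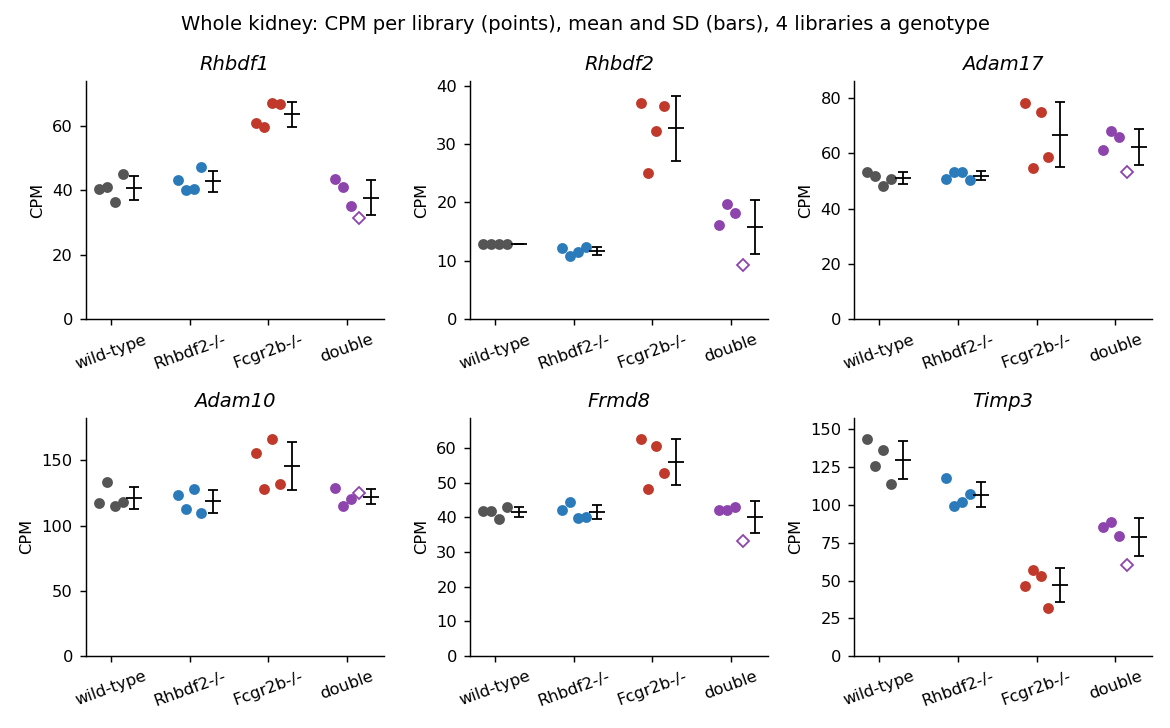
CPM (y axis) of each member in whole kidney, 1 point a library, by genotype label (x axis); bars give the mean and SD of 4 libraries and the open diamond is double-mutant library iR2ko_65. The Fcgr2b-/- points lie above all others for Rhbdf1, Rhbdf2 and Frmd8 and below all others for Timp3, while iR2ko_65 is the lowest double mutant for every member but Adam10.

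Adam17, the sheddase itself, rose in Fcgr2b-/- samples of both kinds, and by more in macrophages, although the 2 tissues were not tested against each other. Kidneys had 53.2, 51.8, 48.3 and 50.6 CPM in wild-type, 50.7, 53.3, 53.4 and 50.2 in Rhbdf2-/-, 78.2, 54.6, 75.0 and 58.6 in Fcgr2b-/- and 61.2, 68.1, 65.7 and 53.3 in the double mutant. The Fcgr2b-/- and double-mutant kidneys overlapped, and 2 of the 4 Fcgr2b-/- kidneys lay nearer to the wild-type range than the others did. Fcgr2b-/- kidneys differed from wild-type by 0.36 ± 0.10 on the log2 scale (SE; limma adjusted p = 0.00718) and -0.09 for the double mutant against Fcgr2b-/- (95% interval -0.31 to 0.13). Against wild-type the double mutant stood 0.27 higher (adjusted p = 0.12), and without iR2ko_65 0.34 higher (adjusted p = 0.0395). In that comparison without iR2ko_65, 3 of 6 members were called beside 13.9% of all genes.

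Sorted macrophages held 211, 198 and 245 CPM of Adam17 in wild-type and 217, 242 and 216 in Rhbdf2-/-. Fcgr2b-/- macrophages held 449, 346 and 397 CPM and double mutants 414, 397 and 437. The libraries thus fell into a lower and a higher range by Fcgr2b label, with no overlap. Rhbdf2-/- made no difference beyond the spread within either range. Sums over 15 macrophage markers split by the same label. They reached at most 44261 CPM in wild-type and 39381 in Rhbdf2-/-, while the lowest double mutant had 53385 and the lowest Fcgr2b-/- library 58796. Libraries lay apart for 58.5% of all genes in Fcgr2b-/- against wild-type and 41.3% in double mutant against Rhbdf2-/-. The part of this marker shift in the Adam17 values was not tested. Fitted changes (log2) were 0.86 ± 0.12 in Fcgr2b-/- against wild-type (SE; limma adjusted p = 0.000138) and 0.89 ± 0.12 in the double mutant against Rhbdf2-/- (adjusted p = 0.00137). The double mutant differed from Fcgr2b-/- by 0.07 (95% interval -0.19 to 0.34) and Rhbdf2-/- from wild-type by 0.05 (interval -0.21 to 0.31). These Adam17 calls in macrophages kept their direction and side of the threshold under every alternative run.

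Adam10 exceeded Adam17 in CPM per kilobase in every library but 2 macrophage libraries, FcR2bko_847 and the double mutant iR2ko_823, in which Adam17 was the higher, and where it was called its change was the smallest of the called members. Kidneys held 117, 133, 115 and 118 CPM in wild-type, 124, 113, 128 and 110 in Rhbdf2-/-, 156, 128, 166 and 132 in Fcgr2b-/- and 129, 115, 120 and 125 in the double mutant. The Fcgr2b-/- range overlapped those of the other genotypes. The log2 change was 0.26 ± 0.08 against wild-type (SE; limma adjusted p = 0.0156), which became 0.0541 without FcR2bko_591 and 0.0509 with the 2 groups alone in the fit. The double mutant against Fcgr2b-/- gave -0.24 ± 0.08 (adjusted p = 0.0291). The second call was lost without FcR2bko_21 (0.0818), FcR2bko_591 (0.0937), iR2ko_370 (0.0755) or iR2ko_367 (0.0572), and with the 2 groups alone (0.0973).

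In macrophages Adam10 stood at 227, 223 and 269 CPM in wild-type, 216, 197 and 233 in Rhbdf2-/-, 279, 310 and 368 in Fcgr2b-/- and 324, 267 and 357 in the double mutant. Fcgr2b-/- libraries lay above wild-type without overlap, and double mutants above Rhbdf2-/-. The log2 changes were 0.41 ± 0.14 (SE; limma adjusted p = 0.0289) and 0.54 ± 0.14 (adjusted p = 0.0254). Under the replicate block neither passed (0.234 and 0.225), and the first also failed with the 2 groups alone (0.0518). The first call was lost without WTa (0.0846), WTb (0.0987), FcR2bko_595 (0.0563) or FcR2bko_875 (0.115), and the second without iR2ko_KOa (0.0727), iR2ko_KOb (0.0803), iR2ko_KO3 (0.0523), iR2ko_579 (0.0801) or iR2ko_592 (0.0651).

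Frmd8, whose product holds iRhoms at the cell surface, rose in Fcgr2b-/- kidneys and was not called in any macrophage comparison. Kidneys held 41.8, 41.8, 39.4 and 42.9 CPM in wild-type, 42.0, 44.3, 39.8 and 40.1 in Rhbdf2-/-, 62.4, 48.0, 60.5 and 52.7 in Fcgr2b-/- and 42.1, 42.0, 43.1 and 33.0 in the double mutant. All Fcgr2b-/- kidneys were higher than all others, and 3 of 4 double mutants lay within the Rhbdf2-/- range, 2 of them also within the wild-type range. The log2 change was 0.42 ± 0.09 against wild-type (SE; limma adjusted p = 0.00119) and -0.47 ± 0.09 in the double mutant against Fcgr2b-/- (adjusted p = 0.000787). Without iR2ko_65, the lowest library, the latter was -0.38 (adjusted p = 0.00183).

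Macrophage values of Frmd8 were 59.1, 59.5 and 72.0 CPM in wild-type, 60.2, 64.0 and 52.7 in Rhbdf2-/-, 60.4, 66.2 and 39.0 in Fcgr2b-/- and 48.2, 60.5 and 65.3 in the double mutant. The 4 groups overlapped, with 1 low Fcgr2b-/- library. The log2 change of Fcgr2b-/- against wild-type was -0.23 (95% interval -0.64 to 0.18).

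**Figure D3:**
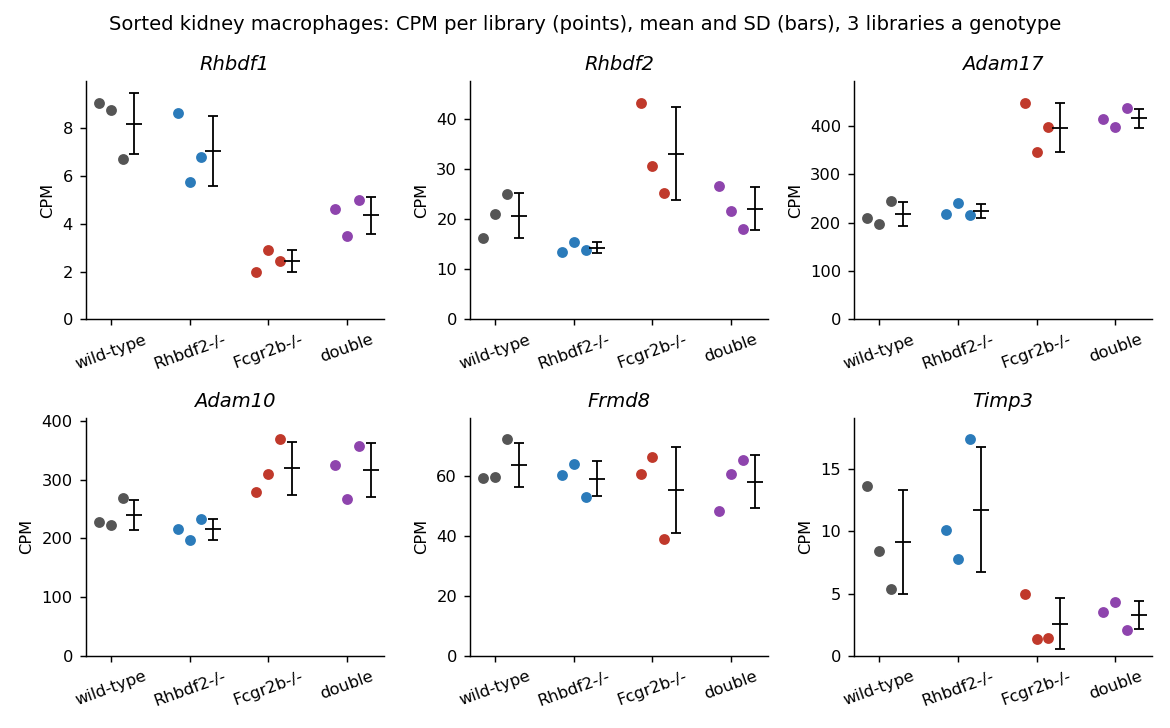
CPM (y axis) of each member in sorted kidney macrophages, 1 point a library, by genotype label (x axis); bars give the mean and SD of 3 libraries. Adam17 splits by Fcgr2b label at 198 to 245 CPM against 346 to 449, Rhbdf1 is lowest in Fcgr2b-/- libraries, and Frmd8 overlaps in all 4 groups.

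Timp3, the inhibitor of ADAM17 and ADAM10, fell most of all members in Fcgr2b-/- kidneys. Its levels were 143, 126, 136 and 114 CPM in wild-type, 118, 99.0, 102 and 108 in Rhbdf2-/-, 46.5, 57.2, 53.1 and 31.7 in Fcgr2b-/- and 85.6, 88.5, 79.3 and 60.6 in the double mutant. The 4 genotypes fell in the order wild-type, Rhbdf2-/-, double mutant, Fcgr2b-/-, and the first 2 in that order overlapped while the others did not. The log2 change was -1.47 ± 0.16 in Fcgr2b-/- against wild-type (SE; limma adjusted p = 2.69e-06), 0.363 times the wild-type mean. The double mutant was higher than Fcgr2b-/- by 0.74 ± 0.16 (adjusted p = 0.00149) and its log2 change from wild-type was -0.73 ± 0.16 (adjusted p = 0.018). The latter call was lost without WT_346 (0.0675) or iR2ko_367 (0.0509) and stood at -0.61 without iR2ko_65 (0.0153). Rhbdf2-/- and wild-type kidneys differed by -0.28 (95% interval -0.61 to 0.05).

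Macrophage libraries held little Timp3: 13.6, 8.43 and 5.39 CPM in wild-type, 10.1, 7.78 and 17.4 in Rhbdf2-/-, 4.94, 1.35 and 1.48 in Fcgr2b-/- and 3.50, 4.33 and 2.11 in the double mutant. The groups with intact Fcgr2b lay above those without, and the spread within a group was wide. Timp3 changed by -1.56 ± 0.42 in Fcgr2b-/- against wild-type (SE; limma adjusted p = 0.00797) and -1.53 ± 0.42 in the double mutant against Rhbdf2-/- (adjusted p = 0.0293). The second was lost with voom (0.0517), under the replicate block (0.162) and without iR2ko_KOa (0.0732), iR2ko_KO3 (0.104), iR2ko_579 (0.0762) or iR2ko_592 (0.0743). Distal nephron markers moved in the same direction: wild-type libraries summed to 1722 to 7573 CPM and Rhbdf2-/- libraries to 2955 to 3380, against 402 to 1089 for Fcgr2b-/- and 462 to 2504 for double mutants, with 10 of 12 markers measured, none of them at 0 in every library and 10 of 10 lower in Fcgr2b-/- than in wild-type. The last count stands beside 28.5% of all genes called lower. Proximal tubule markers, 12 of 12 measured, summed to 1102 to 2138 CPM in wild-type and 1723 to 2463 in Rhbdf2-/-. Their sums were 963 to 1753 CPM in Fcgr2b-/- and 871 to 1023 in double mutants. In each of the 4 genotypes the library with the highest proximal tubule sum also held the most Timp3. The part of tubule transcripts in the Timp3 values of sorted cells was not tested.

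The contrast between the 2 effects of Rhbdf2 loss was past the threshold in kidney for Rhbdf1 (-0.82 ± 0.14, SE; limma adjusted p = 0.000805), Rhbdf2 (-0.90 ± 0.24, 0.0136), Frmd8 (-0.47 ± 0.13, 0.0137) and Timp3 (1.02 ± 0.22, 0.00384). In each of these the double mutant differed from Fcgr2b-/- while Rhbdf2-/- lay near wild-type. The contrast passed for 27.8% of all genes, and in kidney it cannot be told apart from lane. Adam17 (-0.11, 95% interval -0.43 to 0.20) and Adam10 (-0.22, interval -0.47 to 0.04) were not called. Without iR2ko_65 the double mutant against Fcgr2b-/- gave -0.66 for Rhbdf1, -0.82 for Rhbdf2, -0.02 for Adam17, -0.25 for Adam10 and 0.86 for Timp3, and 5 members were called beside 39.4% of genes. The 4 calls of the contrast held without it, at -0.73, -0.68, -0.39 and 1.14, beside 24.9% of genes. In macrophages Rhbdf1 gave 0.83 ± 0.30 (adjusted p = 0.0924) and Adam17 0.02 (interval -0.35 to 0.40).

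Markers of several cell types, but not of all, moved with the members in whole kidney. Their counts stand beside 60.3% of all genes called in Fcgr2b-/- against wild-type, 29.5% higher and 30.8% lower. In the double mutant against Fcgr2b-/- 45.3% of all genes were called, 22.5% higher and 22.8% lower. Over 15 macrophage markers the wild-type sums ran from 311 to 371 CPM and those of Rhbdf2-/- from 310 to 483, against 1235 to 3186 for Fcgr2b-/- and 505 to 2064 for double mutants; 14 rose and 1 fell in Fcgr2b-/- against wild-type, and none was at 0 in every library. The 12 proximal tubule markers summed to 27214 to 29841, 24793 to 30288, 5140 to 10350 and 20232 to 22827 CPM in the same order, and 12 of 12 fell. The 12 tubular injury markers summed to 3407 to 3861, 3079 to 3496, 10157 to 19451 and 3409 to 6633 CPM, and 12 of 12 rose. Stromal markers, 10 of 10 measured, summed to 302 to 397, 210 to 338, 810 to 1832 and 231 to 780 CPM; 8 rose in Fcgr2b-/- against wild-type and 6 fell in the double mutant against Fcgr2b-/-, where 0 of the 15 macrophage markers rose and 3 fell. In whole tissue fewer cells of a type and less RNA per cell cannot be told apart, and the part of these shifts in the members' values was not tested. Within the Fcgr2b-/- kidneys, Adam17 was higher in the 2 libraries with macrophage sums of 2940 and 3186 CPM (75.0 and 78.2) than in those at 1235 and 1553 CPM (54.6 and 58.6), and Rhbdf2 stood at 37.1, 32.3, 36.5 and 25.0 CPM in the libraries with sums of 3186, 2940, 1553 and 1235 CPM.

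**Figure D4:**
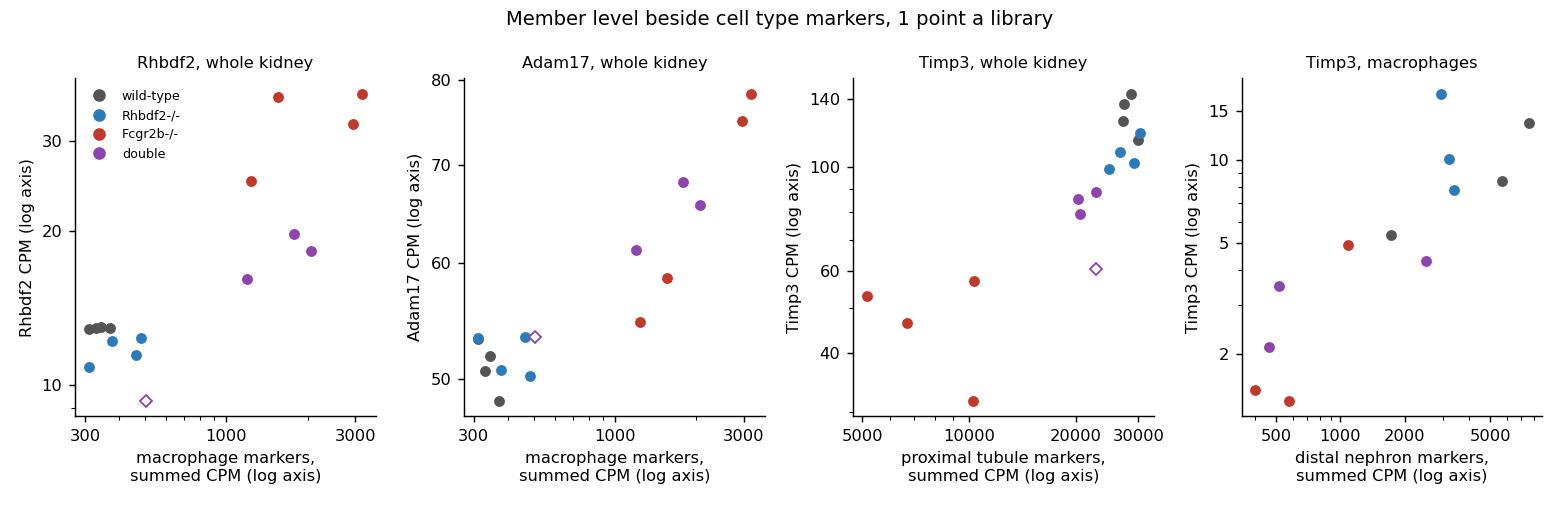
Level of a member (y axis, CPM, log axis) against the summed level of a marker list (x axis, CPM, log axis), 1 point a library, coloured by genotype label; the open diamond is iR2ko_65. Rhbdf2 and Adam17 are plotted against macrophage markers and Timp3 against proximal tubule markers in kidney, and Timp3 against distal nephron markers in sorted macrophages, where the 4 libraries with the lowest marker sums hold under 5 CPM of Timp3.

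Ratios within a library do not depend on its scaling and were taken on CPM per kilobase of exon. In wild-type kidney Adam10 was the highest member at 24.6 ± 1.7 CPM per kb (SD, n = 4), then Timp3 at 15.9 ± 1.6, Frmd8 at 8.16 ± 0.29, Rhbdf1 at 7.50 ± 0.67, Adam17 at 7.13 ± 0.29 and Rhbdf2 at 2.44. Frmd8 (7.75 to 8.44) overlapped Rhbdf1 (6.69 to 8.31), and Rhbdf1 overlapped Adam17 (6.75 to 7.44); the other neighbours in that order did not overlap. In wild-type macrophages the order was Adam10 (48.8 ± 5.1, n = 3), Adam17 (30.5 ± 3.4), Frmd8 (12.5 ± 1.4), Rhbdf2 (3.92 ± 0.84), Rhbdf1 (1.51 ± 0.23) and Timp3 (1.12 ± 0.51), of which neighbours the last 2 overlapped. The 2 tissues were made with different kits and normalized apart, so levels were not tested between them.

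Adam17 over Timp3 ran from 0.403 to 0.505 across wild-type kidneys and from 0.489 to 0.612 across Rhbdf2-/- ones. It was 1.09 to 2.11 with loss of Fcgr2b alone and 0.814 to 1.00 with loss of both genes. Fcgr2b-/- kidneys lay above all others and double mutants above the 2 groups with intact Fcgr2b. In macrophages the ratio spanned 17.6 to 51.8 for wild-type and 14.2 to 35.4 for Rhbdf2-/-, against 103 to 306 in Fcgr2b-/- and 104 to 236 in the double mutant.

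Of the 2 iRhom genes, Rhbdf1 was the higher in every kidney and Rhbdf2 in every macrophage library. Rhbdf2 over Rhbdf1 ran from 0.294 to 0.364 across wild-type kidneys and from 0.268 to 0.291 across Rhbdf2-/- ones, against 0.430 to 0.625 with loss of Fcgr2b alone and 0.304 to 0.532 with loss of both. In macrophages, in the same order, it was 1.83 to 3.82, 1.60 to 2.77, 10.6 to 22.2 and 3.73 to 6.35. The Fcgr2b-/- macrophages did not overlap any other group in this ratio. Adam17 over the sum of both iRhom genes was 0.658 to 0.755 in wild-type kidneys and 0.427 to 0.601 in Fcgr2b-/-. The iRhom transcripts thus rose by more than Adam17 there. In Rhbdf2-/- kidneys this ratio was 0.636 to 0.789 and in double mutants 0.774 to 0.991. Macrophages had the opposite order, at 4.97 to 6.23 in wild-type and 7.34 to 10.7 in Fcgr2b-/-. Rhbdf2-/- macrophages, at 7.37 to 8.47, also lay above wild-type and overlapped Fcgr2b-/-, and double mutants ran from 9.88 to 14.1.

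**Figure D5:**
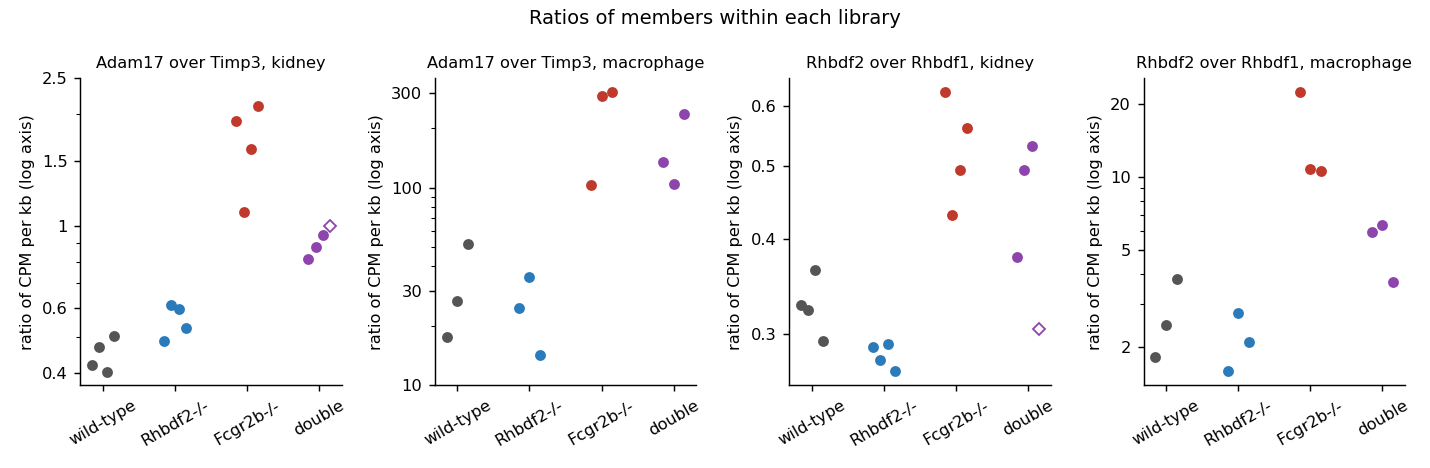
Ratio of CPM per kilobase of 2 members within each library (y axis, log axis) by genotype label (x axis), 1 point a library, for Adam17 over Timp3 and Rhbdf2 over Rhbdf1 in kidney and macrophages; the open diamond is iR2ko_65. Adam17 over Timp3 is 1.09 to 2.11 in Fcgr2b-/- kidneys and at most 0.505 in wild-type.

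Genes with the most similar pattern over libraries were listed by Pearson's r of log2(CPM + 1), as a description in which all points share genotype, tissue and depth. Over the 16 kidney libraries Adam17 was closest to Ggta1 (0.961), Csf1r (0.96) and Cx3cr1 (0.952), of which the last 2 are macrophage receptors on the marker list. Rhbdf2 was closest to Agpat4, Trp53 and Psen2 (0.985 to 0.986), and after subtracting genotype means to Cd300a (0.961) and Csf2ra (0.957), both myeloid receptor genes. Timp3 was closest to St8sia1, Abca3 and Col4a3 (0.964 to 0.966), the last a collagen IV chain of the glomerular basement membrane. Rhbdf1 was closest to Pusl1 (0.965), Frmd8 to E2f3 (0.971) and Adam10 to Capn2 (0.929).

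Over the 12 macrophage libraries Timp3 was closest to Slc22a18, Thnsl2 and Acsm5 (0.983 to 0.986). After subtracting genotype means it was closest to Acsm5 (0.994), Pter (0.98) and Hgd (0.977), metabolic enzymes of the kidney tubule. Adam17 was closest to Clec12a (0.98), a myeloid lectin, Agpat4 (0.976) and Sirpb1b (0.975), and Rhbdf1 to Cep68, Bace1 and Chd6 (0.967 to 0.971). Rhbdf2 was closest to Timm23 (0.962), Adam10 to Fxr1 (0.943) and Frmd8 to Rbm10 (0.918). Among the members themselves, Frmd8 ran with Rhbdf2 (0.893) and Rhbdf1 (0.878) in kidney, and Adam17 against Rhbdf1 (-0.86) in macrophages.

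Partners of the proteases were read from lists that were likewise drawn up with earlier results known. Their counts of called genes stand beside the shares over all genes, in Fcgr2b-/- against wild-type 60.3% called in kidney (29.5% higher, 30.8% lower) and 52.8% in macrophages (24.2% higher, 28.5% lower). The TspanC8 tetraspanins guide ADAM10, and of 5 measured in kidney 2 rose in Fcgr2b-/- against wild-type and 0 fell: Tspan15 by 0.68 (29.4 to 47.9 CPM between means; limma adjusted p = 9.17e-06) and Tspan17 by 1.04 (adjusted p = 1.91e-05). The list's median change was -0.04, beside -0.0089 over all genes. Both fell in the double mutant against Fcgr2b-/-, with log2 changes of -0.59 and -0.88. Tspan14, which also supports ADAM10, had log2 changes of -0.04 and -0.08 (adjusted p = 0.697 and 0.473). In macrophages 1 of 3 rose, Tspan5 (1.04, adjusted p = 0.00144), and 1 fell, Tspan33 (-1.16, adjusted p = 0.000404).

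Among other metalloproteinase inhibitors in kidney, Timp1 and Timp2 moved against Timp3, while Reck moved in its direction and was not called. Timp1 stood at 0.2 CPM on average in wild-type and 21.3 in Fcgr2b-/- kidneys, with a log2 change of 4.13 on the log2(CPM + 1) scale (limma adjusted p = 6.9e-07), and fell again by a log2 change of -3.06 in the double mutant against Fcgr2b-/-. Timp2 rose by 1.34 (77.0 to 207 CPM; adjusted p = 0.00045), and Reck had a change of -0.36 (adjusted p = 0.078). In macrophages Timp2 was the measured one besides Timp3, at means of 72.0 CPM in wild-type and 82.9 in Fcgr2b-/- (log2 change 0.20, adjusted p = 0.228).

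Among 6 further ADAM genes in kidney 4 rose and 1 fell in Fcgr2b-/- against wild-type, beside 60.3% of all genes called. The largest rise was that of Adam8, a protease of myeloid cells, at 2.98 (1.0 to 15.2 CPM; limma adjusted p = 2.8e-05), and Adam9 fell by 0.29 on the log2 scale (adjusted p = 0.00123). In macrophages 3 of 7 rose and 4 fell, beside 52.8% of all genes called. Adam8 rose from 3.3 to 429 CPM between means (log2 change 6.69, adjusted p = 4.26e-06) and was at 52.4 CPM in the double mutant, -3.24 from Fcgr2b-/- (adjusted p = 0.00118). Adam9 rose by 1.71 (adjusted p = 4.35e-05), and Adam33 fell from 57.7 to 4.4 CPM (-3.47, adjusted p = 6.22e-07) and was higher again in the double mutant than in Fcgr2b-/- by 2.88. Adam9 thus had opposite signs in kidney and macrophages, as Rhbdf1 did.

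Of 9 other rhomboid-like genes in kidney 1 rose, Rhbdl2 (1.01, limma adjusted p = 3.65e-05, from a mean of 1.6 to 4.2 CPM), and Rhbdd2 and Derl1 fell by 0.29 and 0.17 on the log2 scale. In macrophages 3 of 7 fell, among them Ubac2 (-1.06, adjusted p = 4.37e-05). Among 16 genes of ADAM17 maturation and trafficking, which include the proprotein convertases that remove its prodomain and the 14-3-3 proteins that bind iRhoms, 7 rose and 4 fell in Fcgr2b-/- kidneys, 11 of 16 beside 60.3% of all genes called, with a median change of 0.05. Furin, a convertase for ADAM17, had a change of -0.16 (adjusted p = 0.0746), and the 14-3-3 genes Ywhah and Sfn rose by 1.00 and 1.74 (adjusted p = 1.88e-06 and 3.76e-06). In Fcgr2b-/- macrophages 5 of 15 rose and 2 fell, with Ywhaz, Ywhab and Ywhae higher by 0.76, 0.74 and 0.70.

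Of 19 measured substrates of ADAM17 13 rose and 4 fell in Fcgr2b-/- kidneys against wild-type, beside 60.3% of all genes called (29.5% higher, 30.8% lower). Their median change was 1.03, beside -0.0089 over all genes. In double-mutant against Fcgr2b-/- kidneys 2 rose and 7 fell, 9 of 19 beside 45.3% of all genes called (22.5% higher, 22.8% lower). Hbegf, a membrane-bound EGF receptor ligand, went from a mean of 11.1 CPM in wild-type to 31.9 in Fcgr2b-/- and 11.9 in the double mutant. Tnf was low in kidney, at means of 0.3, 3.3 and 2.7 CPM in the same groups, and the receptor gene Tnfrsf1a stood at 82.2, 170 and 106 CPM. In macrophages 4 of 18 rose and 5 fell in Fcgr2b-/- against wild-type, beside 52.8% of all genes called (24.2% higher, 28.5% lower). Tnf had a change of 0.52 there (limma adjusted p = 0.203).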

How the data were processed

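Whole kidney (16 libraries) and sorted macrophages (12) came in 2 deposited tables with log2 CPM per library, log2 fold changes, p-values and FDR-adjusted p-values of the authors' comparisons, per the file headers; aligner, counter and annotation were not given in the sources used here, and the submitters' processing notes name mm10 and GRCm38. The authors' log2 values were turned back into CPM, whose low values were whole multiples of 1 read (100% within 0.1 read; 2061 values in kidney, 3018 in macrophages), which gave the depths. Kidney libraries were made with TruSeq and macrophage libraries with SMART-Seq v4, per the labels' protocols, and the tables were normalized apart. A small prior of the deposited log2 scale (0.0285 CPM in kidney, 0.03 in macrophages) was removed only to recover reads. The CPM values keep that prior. No library pair was identical.

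Tests ran in R 4.3.3 with limma 3.58.1 (trend, all 4 genotypes of a tissue in 1 fit, pseudocount 1 CPM, Benjamini-Hochberg adjustment over 12315 or 10523 genes) and were tested on simulated data. Intervals and SE are limma's. The labels name littermates but do not state that each library is 1 mouse; p-values cover only the spread between libraries, which may be technical. The members and lists were chosen with earlier results of these data known. Members were always named; from each pathway list up to 4 genes with the smallest p in a comparison, and a short list of set genes, could be named, and the 3 nearest genes by correlation among genes of mean CPM of at least 2. The marker Adgre1 was read under its older symbol Emr1. Alternatives changed the pseudocount, the filter, the scaling, the variance model, the groups in the fit, the test and the libraries. Promoter entries were used for Adam17 and Timp3.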

Additional observations from a re-analysis of the deposited data

Results flagged for a closer look

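In kidney double mutants the Frmd8 value of library iR2ko_65, 33.0 CPM, lay far from the other 3, at 42.0 to 43.1 CPM, with a gap of 0.894 of the group's range. About 1 in 20 groups of this kind would be marked in this way by chance, and other features of this library are given with the results.

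The log2 change with the Rhbdf2-/- label differed in kidney between libraries labelled with and without Fcgr2b, for Rhbdf1 (-0.82), Rhbdf2 (-0.90), Frmd8 (-0.47) and Timp3 (1.02). By the same limma test of the difference 27.8% of all genes passed. Each kidney genotype had its own lane, so genotype and lane cannot be told apart in this contrast. Rhbdf1 went in opposite directions in Fcgr2b-/- against wild-type, 0.63 in kidney and -1.41 in macrophages, with every library on its side; the difference between the tissues was not tested.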

How the results depend on the processing

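Over 9 alternative settings beside the reported one, 570 of 600 member values kept their direction and side of the threshold, 16 lost a call, 3 gained one and 11 changed sign; over single libraries left out the numbers were 513 of 588, 31, 8 and 36. For the 27 called results 402 of 449 alternative values kept the call, 47 lost it and 0 changed sign, and the cause was not tested.

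Counts of called members moved in macrophages. Fcgr2b-/- against wild-type gave 3 with only the 2 groups in the fit and 3 with the replicate block, and double mutant against Fcgr2b-/- gave 0 recentred on the median, 0 with only the 2 groups and 0 with voom. Double mutant against Rhbdf2-/- gave 1 with the replicate block, and double mutant against wild-type 1 with only the 2 groups and 1 with the block. The letters a and b label 2 macrophage libraries each of wild-type and Rhbdf2-/-. Deviations of libraries with the same letter correlated at 0.242 and -0.054, and those without a shared letter at -0.326 to 0.279. So few values cannot decide whether the letters mark pairs, and they entered only as an alternative block. No Fcgr2b-/- or double-mutant library has a letter, so the block cannot be fully told apart from Fcgr2b label. Under that block 162 in place of 1918 genes were called in double mutant against Rhbdf2-/- and 253 in place of 1943 against wild-type.

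Leaving out 1 library, the members called ranged from 0 to 1 in double mutant against Rhbdf2-/- kidneys (1 without iR2ko_65), beside 0.219% to 12.7% of all genes. Against wild-type they ranged from 0 (without WT_346, 0.983% of all genes) to 3 (without iR2ko_65, 13.9%). In macrophages the ranges were 3 to 5 for Fcgr2b-/- against wild-type, beside 43.6% to 53.9% of all genes. Double mutant against Fcgr2b-/- gave 0 to 1 (21.1% to 27.8%). Against Rhbdf2-/- it gave 1 to 3 (5.68% to 15.7%). Against wild-type it gave 1 to 4 (4.28% to 28.6%), with 4 members and 28.6% without WT2.

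Sign changes were in uncalled log2 changes near 0. Scaling to non-mitochondrial reads gave, in kidney, Frmd8 -0.0002959 in Rhbdf2-/- against wild-type, 0.02466 in double mutant against Rhbdf2-/- and 0.02437 against wild-type. In macrophages it gave Adam17 -0.02502 and Frmd8 -0.003855 in double mutant against Fcgr2b-/-, Adam17 -0.01659 in Rhbdf2-/- against wild-type, Rhbdf2 -0.08991 in double mutant against wild-type and Adam17 -0.008434 in the interaction. Recentring gave -0.03186 for Adam17 and -0.008888 for Timp3 in the macrophage interaction, and the replicate block -0.03497 for Rhbdf2 in double mutant against wild-type.

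When 1 library was left out, values that changed sign ranged as follows. In kidney Rhbdf2-/- against wild-type the range was Adam17 from -0.0002406 to 0.04585, Adam10 from -0.06529 to 0.02035 and Frmd8 from -0.02799 to 0.02182. In kidney double mutant against Rhbdf2-/- the range was Frmd8 from -0.09525 to 0.02879. In kidney double mutant against wild-type the range was Adam10 from -0.008444 to 0.06447 and Frmd8 from -0.09279 to 0.03124. In macrophage double mutant against Fcgr2b-/- the range was Adam17 from -0.02179 to 0.1657, Adam10 from -0.1085 to 0.1013 and Frmd8 from -0.1333 to 0.2403. In macrophage Rhbdf2-/- against wild-type the range was Adam17 from -0.01528 to 0.136. In macrophage double mutant against Rhbdf2-/- the range was Frmd8 from -0.1198 to 0.09586. In macrophage double mutant against wild-type the range was Rhbdf2 from -0.06902 to 0.23. In macrophage interaction the range was Rhbdf2 from -0.2243 to 0.1555, Adam17 from -0.07121 to 0.1163, Frmd8 from -0.02798 to 0.3456 and Timp3 from -0.2762 to 0.4616.

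Over all genes, the 2 groups alone called 3550 in place of 5578 genes in double mutant against Fcgr2b-/- kidneys and 599 in place of 1943 in double mutant against wild-type macrophages. Voom called 77 in place of 431 in double mutant against Rhbdf2-/- kidneys and 479 in place of 898 against wild-type. For Rhbdf2-/- against wild-type macrophages 2 genes were called, and 0 to 5 under alternatives. Scaling to non-mitochondrial reads moved the share of called genes that were higher from 48.9% to 68.8% in Fcgr2b-/- against wild-type kidneys, from 49.6% to 34.7% in double mutant against Fcgr2b-/-, from 66.4% to 88.5% against Rhbdf2-/- (77.2% recentred), from 62.0% to 84.7% against wild-type and from 50.0% to 36.3% in the interaction. In macrophages it moved from 53.4% to 40.2%, from 50.5% to 34.9% and from 53.5% to 26.8% in the double mutant against Fcgr2b-/-, Rhbdf2-/- and wild-type. A planned edgeR test on recovered reads was not run, since the deposited unit is log2; voom was run in its place. That scaling moved the median change of all genes by 0.175 in Fcgr2b-/- against wild-type kidneys and by -0.115 and -0.176 in double mutant against Rhbdf2-/- and wild-type macrophages. Partner, substrate and marker lists were counted with all libraries and the reported setting only.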
